A study of Mus musculus with 12 samples.

Results

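The 2045 intervals described here were those in which the H3K27ac signal took a larger share of the library after acetate in each of 6 comparisons. They were selected on the share ratio itself. The share is the value of an interval divided by the sum over all 126464 intervals of its library, and an interval had to have a mean value of at least 50 over the 12 libraries and a ratio above 1 in all 6 pairs of libraries that differed only in acetate. Of 24109 intervals that passed the mean (19.1% of all), 2045 gained share in all 6 pairs (8.48%, or 1.62% of all intervals) and 1235 lost share in all 6 (5.12%). The gaining intervals were nearest to 1775 different genes.

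H3K27ac was profiled by ChIP-seq in wild-type 4T1 cells, a mouse mammary carcinoma line, after 48 h of treatment, with human chromatin added as a spike-in before the immunoprecipitation. Cells received vehicle, 5 mM acetate, 50 µM etomoxir, etomoxir with acetate, etomoxir with 50 µM SB204990, or all 3 agents, at the same doses throughout. Each of the 6 groups held 2 libraries. Library names carry 1 of 2 suffixes, called set 1 and set 2 below. The meaning of the suffix is not given, nor is it stated whether the libraries of a group came from separate cultures, so p-values measure only the spread between these libraries.

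Acetylation of histone H3 at this lysine marks active promoters and enhancers, and the acetyl group comes from acetyl-CoA. Acetate is converted to acetyl-CoA by acetyl-CoA synthetases. Etomoxir blocks CPT1, through which long-chain fatty acids enter mitochondria for oxidation, and SB204990 blocks ATP citrate lyase, which makes acetyl-CoA from citrate in the cytosol.

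The central 300 bases of 5 gaining intervals are shown, on the plus strand of GRCm38 as held by RefSeq, because they have the largest mean share ratios overall (Ranbp3l, Fam131b, Gm7596) or among intervals annotated as promoters (Fam131b, Mrgprf, Gm15569). Intervals are named by the nearest gene. Capitals mark CCCACCC, a motif bound by KLF factors, searched on both strands. The centre of an interval is not a summit of the signal.
Ranbp3l, chr15:8940252-8940551: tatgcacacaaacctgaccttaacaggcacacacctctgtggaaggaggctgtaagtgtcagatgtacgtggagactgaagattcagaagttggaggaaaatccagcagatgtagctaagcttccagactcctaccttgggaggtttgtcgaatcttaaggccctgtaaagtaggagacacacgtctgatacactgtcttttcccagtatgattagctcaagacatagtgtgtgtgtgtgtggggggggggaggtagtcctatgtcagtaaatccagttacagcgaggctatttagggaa
Fam131b, chr6:42324652-42324951: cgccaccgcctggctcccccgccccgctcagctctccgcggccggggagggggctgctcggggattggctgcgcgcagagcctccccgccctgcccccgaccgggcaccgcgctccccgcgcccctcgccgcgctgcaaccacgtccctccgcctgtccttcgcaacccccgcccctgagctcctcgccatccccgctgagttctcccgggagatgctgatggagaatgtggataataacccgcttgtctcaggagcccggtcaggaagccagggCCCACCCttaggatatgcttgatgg
Gm7596, chr5:32425504-32425803: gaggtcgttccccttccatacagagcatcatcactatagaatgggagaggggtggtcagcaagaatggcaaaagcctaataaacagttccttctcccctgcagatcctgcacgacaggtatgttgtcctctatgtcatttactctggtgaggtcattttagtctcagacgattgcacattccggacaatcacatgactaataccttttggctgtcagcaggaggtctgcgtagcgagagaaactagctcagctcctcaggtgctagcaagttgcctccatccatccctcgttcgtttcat
Mrgprf, chr7:145299738-145300037: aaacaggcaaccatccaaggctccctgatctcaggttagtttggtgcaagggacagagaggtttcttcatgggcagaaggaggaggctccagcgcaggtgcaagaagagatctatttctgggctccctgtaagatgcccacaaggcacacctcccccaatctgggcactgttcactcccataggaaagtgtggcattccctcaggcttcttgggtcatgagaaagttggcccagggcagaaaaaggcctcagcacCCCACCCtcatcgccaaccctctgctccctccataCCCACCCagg
Gm15569, chr15:86185274-86185573: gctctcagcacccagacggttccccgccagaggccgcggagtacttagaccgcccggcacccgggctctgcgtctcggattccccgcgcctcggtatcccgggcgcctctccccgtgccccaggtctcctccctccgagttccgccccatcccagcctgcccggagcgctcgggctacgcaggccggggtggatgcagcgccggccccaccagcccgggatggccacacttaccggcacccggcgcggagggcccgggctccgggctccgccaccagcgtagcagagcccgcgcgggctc

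The Fam131b window has 1 match and the Mrgprf window 2, and no match to these letters lies in the other windows. The Fam131b and Gm15569 windows are GC-rich (71.3% and 75.7%), with 29 and 36 CpG, whereas the Ranbp3l and Gm7596 windows have 47.3% and 48.7% GC with 4 and 8 CpG. Mrgprf lies between them in GC (56.0%) but has only 2 CpG.

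The files held 7179165 to 16676442 reads in intervals per library. The etomoxir + SB204990 library of set 2 had the fewest reads and stood apart: 81.8% of its reads lay in the 24109 intervals kept by the minimum mean, against 85.9% to 89.6% in the other 11. Its pair is therefore left out as an alternative below. Of the epithelial markers, Krt8 had the most signal (2641 to 5744 spike-scaled reads over the intervals nearest to it) and Cldn7 the least (248 to 621), while Krt18 was the nearest gene of no interval. Of 9 markers of other cell types, 7 stayed below Cldn7 in all libraries, among them the leukocyte markers Ptprc (32.3 to 81.6) and Cd3e (2.79 to 32.0), the endothelial marker Kdr (13.9 to 52.6) and the stromal markers Pdgfra (30.7 to 91) and Lum (25.1 to 84). Pecam1 (382 to 1081, over 7 intervals) and Dcn (244 to 608, over 9) lay in the range of Cldn7 and Krt19 (453 to 1252), and their part in the results was not tested.

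The share of reads in the gaining intervals was about 1 percentage point higher after acetate in every pair, a direction fixed by the selection and given without a test. Without inhibitor, the 2045 intervals held 10.3% and 10.4% of the reads in vehicle libraries (sets 1 and 2) and 11.2% and 11.3% after acetate. With etomoxir they held 9.99% and 9.79%, and 10.9% in both sets after acetate. With etomoxir + SB204990 they held 9.87% and 9.57%, and 10.96% and 10.98% after acetate. All 6 libraries with acetate lay above all 6 without.

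**Figure D1:**
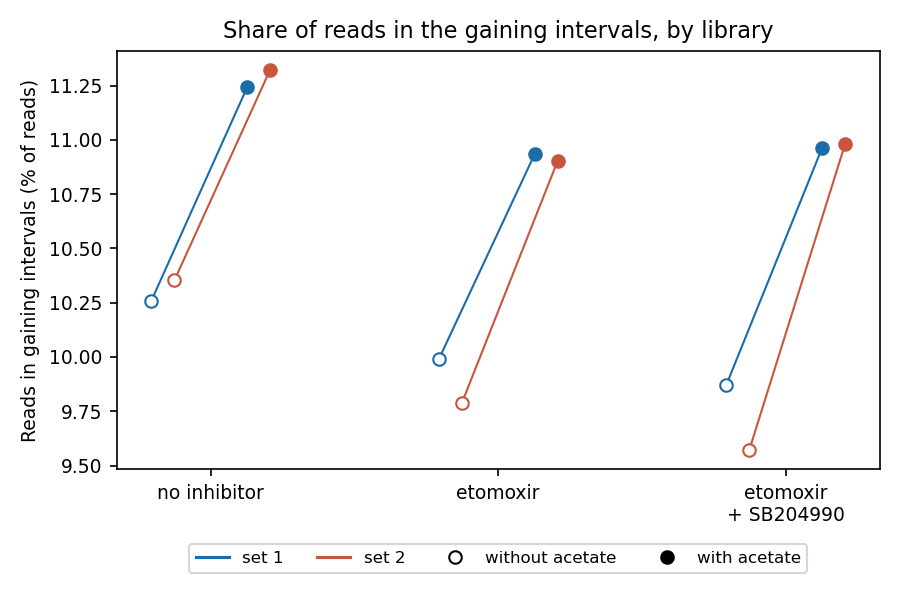
Percentage of the reads in intervals that fell into the 2045 gaining intervals (y axis, starting above 0), for each of the 12 libraries by inhibitor background (x axis). Open circles are libraries without acetate and filled circles those with acetate, and lines join libraries of one set; the open circles lie between 9.57% and 10.4%, and the filled circles between 10.9% and 11.3%.

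Single intervals gained little. The mean ratio over the 6 pairs had a median of 1.14 (log2 0.19) and ran from 1.02 to 1.61; 326 intervals had a mean log2 ratio of at least 0.3 and 16 of at least 0.5. In each pair the median log2 ratio of the gaining intervals was 0.17 to 0.20, against 0.00 to 0.03 over all 24109. The pairs with etomoxir and with etomoxir + SB204990 had medians of 0.19 over both sets, and those without inhibitor 0.17. The counting error was of like size, with a median SE of 0.10 to 0.14 on the log2 scale per pair. In 356 of the 2045 the 6 libraries with acetate all lay above the 6 without, which is 1.48% of the intervals kept. Any interval separated in this way has a ratio above 1 in all 6 pairs. Overlap or its absence is therefore a description here and below, not a test.

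**Figure D2:**
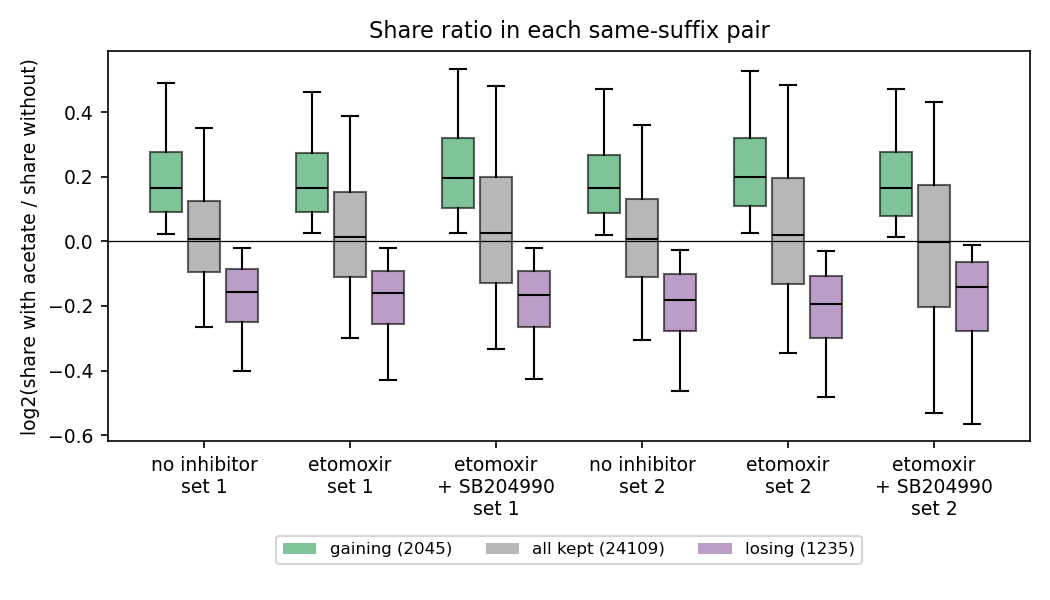
log2 ratio of the share with acetate to the share without (y axis) in each of the 6 pairs (x axis) for gaining intervals, all kept intervals and losing intervals. Boxes span the quartiles with the median as a line, and whiskers run from the 5th to the 95th percentile; the medians of the gaining intervals lie between 0.17 and 0.20.

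The share scale shows redistribution within a library, not the amount of acetylation. On the spike-scaled values as deposited, signal rose after acetate in all 6 pairs in 95.1% of the 24109 intervals, and in all 2045 of the gaining ones. The median log2 change per pair was 0.55 to 0.93 in the gaining intervals and 0.39 to 0.78 over all intervals kept.

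Intervals at the edge of the rule were hardly different from those left out. The smallest of the 6 ratios exceeded 1 by less than 1% in 360 gaining intervals and by less than 5% in 1299. Gains at Bmp3, Dusp16 and Cgn were nearest above 1 (1.00 after rounding), and intervals near Gm20544, 1700061E18Rik and Strn4 were nearest below it. Fam131b (50.2) and Aftph (50.0) lay nearest above the minimum mean of 50. Demanding a ratio more than 5% above 1 in each pair left 746 intervals, and more than 10% left 265. Leaving out 1 pair at a time gave 2351 to 2542 intervals, except for the etomoxir + SB204990 pair of set 2, without which 4280 gained (17.8%).

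The interval near Ranbp3l, a gene for a Ran-binding protein, had the largest mean gain (1.61-fold) and the largest smallest gain (log2 0.58). It lies at chr15:8937755-8943050, in intergenic sequence 27.5 kb upstream of the gene. Its share in RPM (reads for every 1000000 reads in intervals) in set 1 went from 22.5 to 37.5 without inhibitor, from 17.8 to 26.7 with etomoxir, and from 20.5 to 33.0 with etomoxir + SB204990. In set 2 it went from 25.8 to 39.8, from 18.2 to 28.8, and from 20.8 to 36.7. The libraries with and without acetate did not overlap, in values that the selection itself used. Read counts behind these values ran from 149 to 625.

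Promoter intervals were among the strongest gains but were shallow. The interval at the start of Fam131b (chr6:42323628-42325976) had shares in RPM of 3.57 to 4.66 without acetate and 5.85 to 6.55 with it, 1.51-fold on average. At the start of Mrgprf, an orphan G protein-coupled receptor (chr7:145298532-145301244), they were 5.73 to 7.05 and 7.36 to 11.6 (1.48-fold). At Gm15569, where the interval also holds the start of the ceramide kinase gene Cerk, they were 6.96 to 9.04 and 9.49 to 12.2 (1.43-fold). None of these 3 overlapped between libraries with and without acetate, again in values that the selection used. Nor did Cish, an inhibitor of cytokine signalling through STAT proteins (10.6 to 13.2 and 14.7 to 18.3), or Sync, which encodes the intermediate filament protein syncoilin (15.5 to 18.8 and 22.0 to 29.2).

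Among the 10 largest mean gains, the remaining 7 lay outside promoters, with mean folds of 1.45 to 1.502 near Gm7596, Gm31822, 2810404F17Rik, Il17rd, Dlg2, Gm16555 and Gm9747. Il17rd restrains FGF signalling, and its interval had shares in RPM of 4.33 to 7.06 without acetate and 5.77 to 9.89 with it, so the libraries overlapped. Intervals near Gm42761 and Vmn1r39 were also among the 6 largest smallest gains, at 1.35-fold or more in each pair.

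The gaining intervals with the strongest signal were long domains with small gains. The domain over Col4a1 and Col4a2, which encode the basement membrane collagen chains, spans 186 kb and gained 1.04-fold, with overlapping libraries (1037 to 1169 RPM without acetate and 1066 to 1232 with it). The domain over Tns3, a focal adhesion protein, gained 1.11-fold and did not overlap (693 to 827 and 829 to 912). The others were near Gm16045, over the start of Sept9 (1.06-fold), Gm49498 (1.046-fold), 9230111E07Rik (1.11-fold) and Sh3bp1, whose domain also holds the galectin gene Lgals1 (1.04-fold).

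Gaining intervals were longer than the rest, with a median of 7848 bp against 5525 bp over all intervals kept and 5980 bp among those that lost share. Intervals of at least 20 kb made up 16.4% of them (336), 7.08% of all kept and 5.18% of the losing ones. Both differences were smaller under the 5-pair rule, which leaves out the etomoxir + SB204990 pair of set 2, with a median of 6095 bp and 9.56% of at least 20 kb. By length, 5.05% of the shortest decile and 19.1% of the longest decile gained, and without the etomoxir + SB204990 pair of set 2 these were 12.4% and 24.1%. By signal, 5.02% of the lowest decile and 15.3% of the highest gained. This second trend was not seen without that pair, where the percentages were 18.6% and 17.3%. In that pair 24.8% of the lowest decile and 87.1% of the highest had a ratio above 1.

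**Figure D3:**
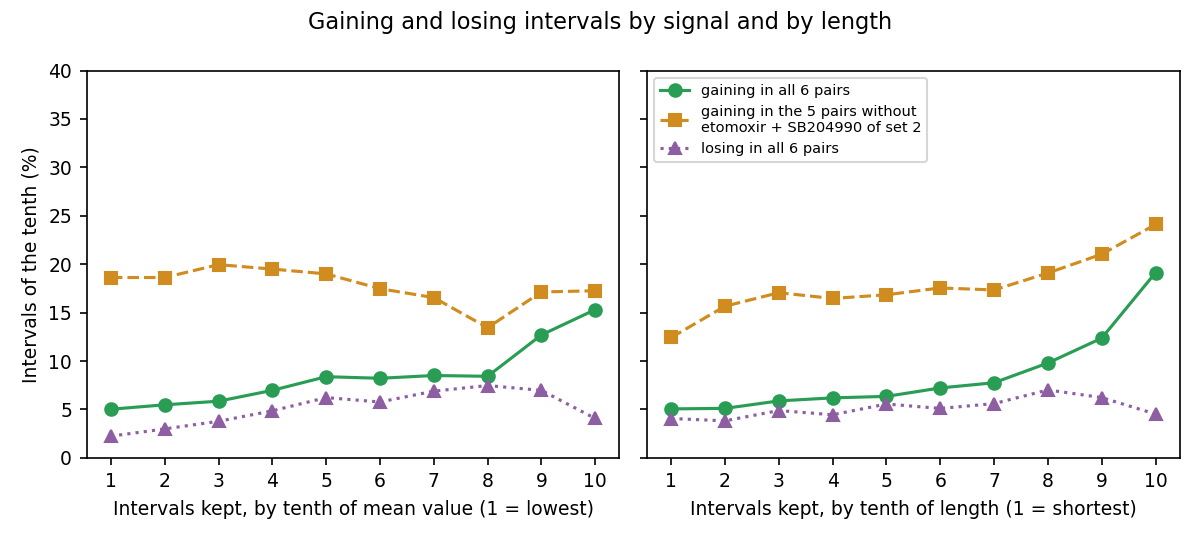
Percentage of intervals that gained or lost share (y axis) in each decile of mean value (left) and of length (right) of the 24109 intervals kept. With 6 pairs the gaining share runs from 5.02% to 15.3% by mean value, and with the 5 pairs it starts at 18.6% and ends at 17.3%; by length both lines are higher at the right end than at the left.

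Promoter annotation was less frequent and intergenic annotation more frequent among the gaining intervals. Of the 2045, 215 were promoters (10.5%, against 13.9% of all kept), 974 were intronic (47.6% against 49.6%) and 617 intergenic (30.2% against 24.6%). Losing intervals differed from all kept in the same directions, with 11.7% promoters and 34.2% intergenic. Of them, 30.4% lay farther than 50 kb from a start site, against 17.1% of the gaining and 18.02% of all. Without the etomoxir + SB204990 pair of set 2, 9.37% of the 4280 were promoters and 26.9% intergenic. These are descriptions of intervals, many of them neighbours, and no test was made.

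In mean GC the gaining and losing intervals lay on opposite sides of the rest, whereas CpG was less frequent in both. The mean GC of the central 300 bases was 48.6% in gaining, 47.7% in all and 44.8% in losing intervals, and the mean number of CpG was 4.77, 5.81 and 4.72. CCCACCC was found in 283 gaining windows (13.8%), in 11.4% of all windows and in 8.10% of losing ones. TTGGCA, part of the NFI recognition site, was found in 17.2%, 14.9% and 15.6%, in the same order, and TGANTCA, the AP-1 site, in 13.2%, 13.5% and 17.0%. GGGCGG, a GC box bound by SP and KLF factors, was found in 8.95%, 10.8% and 8.35%. Both strands were searched for each of 19 motifs, and matches of different motifs may overlap. Under the 5-pair rule the mean GC was 48.4%, CCCACCC was in 12.9% and TTGGCA in 15.8%, so all 3 lay nearer to the values over all windows.

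Gaining intervals also lay next to each other. Of 1898 with another kept interval within 50 kb on either side, 573 (30.2%) were adjacent to a gaining one, against 14.1% of all kept and 4.61% of losing intervals. Losing intervals likewise lay next to each other, with 20.3% adjacent to a losing one, against 6.43% of all kept. The gaining intervals formed 254 runs of at least 2, the longest of 6. One of these runs covers Cdc42ep3, which encodes an effector of the small GTPase CDC42, at chr17:79283650-79463083. Its strongest interval holds the gene's start. There the share in RPM went from 114 to 131, from 109 to 119 and from 108 to 128 in set 1, in the order no inhibitor, etomoxir and etomoxir + SB204990. In set 2 it went from 107 to 121, from 107 to 119 and from 98.9 to 125. The 6 libraries with acetate all lay above the 6 without, while the other 5 intervals of the run had mean folds of 1.08 to 1.28. The other run of 6 lies near 4930412B13Rik and Gm13986 (mean log2 ratio 0.26). A run of 5 near Cyp1b1, a xenobiotic-metabolising cytochrome P450, had a mean log2 ratio of 0.41. Rad51b, a recombination repair gene, also had 6 gaining intervals, with mean folds of 1.06 to 1.24.

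By function, the lists with the highest percentages of gaining intervals under the 6-pair rule were cytokines and chemokines, immediate early genes and collagens. Under the 5-pair rule the order was collagens, immediate early genes, fatty acid oxidation, epithelial genes and then cytokines, with the last 4 between 26.1% and 27.7%. Percentages are read beside 8.48% of all kept intervals, and beside 17.8% under the 5-pair rule. Of 46 intervals nearest to cytokine and chemokine genes, 10 gained (21.7%) and none lost, with 12 (26.1%) under the 5-pair rule. Of 47 intervals at immediate early genes, 10 gained (21.3%) and 1 lost, with 13 (27.7%). Of 35 at collagen genes, 7 gained (20.0%) and none lost, with 15 (42.9%).

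The interval over the start of Tnf, the inflammatory cytokine, and the lymphotoxin gene Ltb had shares in RPM of 26.3 to 32.0 without acetate and 29.7 to 38.8 with it (1.21-fold). The interval over Ccl2, a monocyte-attracting chemokine, had 34.9 to 50.8 and 40.4 to 61.7 (1.18-fold), and its smallest gain was under 1%. Both overlapped. Dusp1, a phosphatase that switches off MAP kinases, had 2 gaining intervals. The stronger, which holds the gene's start, overlapped, with 52.8 to 65.8 and 64.9 to 72.7 (1.12-fold), and the weaker, 5.68 kb upstream, did not, with 6.13 to 10.1 and 10.2 to 12.7 (1.31-fold). The interval nearest to Dusp4, a phosphatase of the same family, did not overlap (22.2 to 25.6 and 28.3 to 33.7). At the interval nearest to Fos they were 10.9 to 15.2 and 15.3 to 17.9. The ranges there did not overlap either. Upstream of Col1a1, the fibrillar collagen chain, they were 16.7 to 22.5 and 20.7 to 28.1 (1.24-fold), with overlap.

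Genes of epithelial junctions and identity had 13 gaining intervals of 79 (16.5%), against 2 losing, and 21 (26.6%) under the 5-pair rule. Muc1, a surface mucin, had 38.8 to 50.4 RPM without acetate and 50.6 to 58.4 with it, without overlap. Ovol2, a repressor of mesenchymal transition, had 7.07 to 8.63 and 8.11 to 10.0. Mesenchymal and matrix genes had 9 of 144 (6.25%), among them Lox, which crosslinks collagen (1.31-fold), and the protease inhibitor Timp3 (1.28-fold), and 5 losing intervals. Under the 5-pair rule they had 21 (14.6%), below the background of 17.8%.

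Among lists on acetyl-CoA and lipid metabolism, fatty acid oxidation and PPAR targets had 5 of 45 (11.1%), including 2 at Acadvl, the very long-chain acyl-CoA dehydrogenase (1.23- and 1.19-fold), and 4 losing. Under the 5-pair rule this list had 12 (26.7%), above the background of 17.8%. Genes of acetyl-CoA supply had 1 gaining interval of 28 (3.57%; Pdhb, of pyruvate dehydrogenase), and 5 (17.9%) under the 5-pair rule. Fatty acid and cholesterol synthesis had 3 of 55 (5.45%), with 7 (12.7%) under the 5-pair rule, and 9 losing (16.4%, against 5.12% of all kept), the latter at Idi1, Hmgcs1, Fdft1, Sqle, Fads2, Scd1, Cyp51, Mvd and Elovl5. The gaining intervals of this list were at Acacb, Fdft1 and Acsl4, so Fdft1 had intervals on both sides. Acacb, the mitochondrial acetyl-CoA carboxylase, had 5.15 to 6.57 RPM without acetate and 6.93 to 9.38 with it, with no overlap. Respiratory chain genes had 1 of 73 (1.37%, at Ndufs5), with 9 (12.3%) under the 5-pair rule, and 7 losing (9.59%). Genes of the integrated stress response had none of 34, with 2 (5.88%) under the 5-pair rule, and 2 losing (5.88%, near the 5.12% of all kept).

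The remaining lists had few members. TGF-beta and BMP pathway genes had 7 of 69 (10.1%), led by the latent TGF-beta binding protein gene Ltbp1 (1.195-fold) and Id1 (1.17-fold). Integrins had 4 of 41 (9.76%), led by Itgb6 (1.27-fold) and Itgb5 (1.12-fold). AP-1 factors had 3 of 19 (15.8%), at Fos and Jdp2, and 4 (21.1%) under the 5-pair rule. NRF2 targets had 2 of 37 (5.41%, at Prdx1 and Gstm1), ribosomal proteins 2 of 71 (2.82%, at Rpl30 and Rps21), glycolysis 1 of 35 (2.86%, at Pfkp), acetyltransferases and readers 1 of 26 (3.85%, at Ncoa2) and deacetylases 1 of 19 (5.26%, at Hdac5). Under the 5-pair rule, beside 17.8% of all kept, glycolysis had 17.1%, near the background, acetyltransferases and readers 15.4%, NRF2 targets 13.5%, deacetylases 10.5% and ribosomal proteins 5.63%. In TGF-beta and BMP genes it was 18.8% and in integrins 22.0%.

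To test the gain in libraries that had not selected it, intervals were chosen on some pairs and read in others. Chosen on set 1 (6672 intervals), 30.7% were above 1 in all 3 pairs of set 2, against 15.2% of all kept and 2.92% of those losing in set 1. Chosen on set 2 (3672), 55.7% were above 1 in all 3 pairs of set 1, against 27.7% and 7.03%. Chosen on 2 backgrounds and read in the third, 64.8% were above 1 in both pairs without inhibitor, against 33.1% of all kept. With etomoxir it was 71.9% against 39.0%, and with etomoxir + SB204990 42.1% against 21.6%. The last rested on set 1, where 88.2% were above 1 (against 54.4% of all kept), since in the etomoxir + SB204990 pair of set 2 the intervals chosen on the other backgrounds were above 1 in 48.5%, against 49.8% of all kept. In that pair the intervals chosen on set 1 were above 1 in 45.3%, also below all kept. In the other pairs of set 2 they were above 1 in 72.9% (no inhibitor, against 51.5% of all kept) and 85.8% (etomoxir, against 53.6%). The gain was thus not seen over all kept intervals in the etomoxir + SB204990 pair of set 2 when that pair took no part in the choice.

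**Figure D4:**
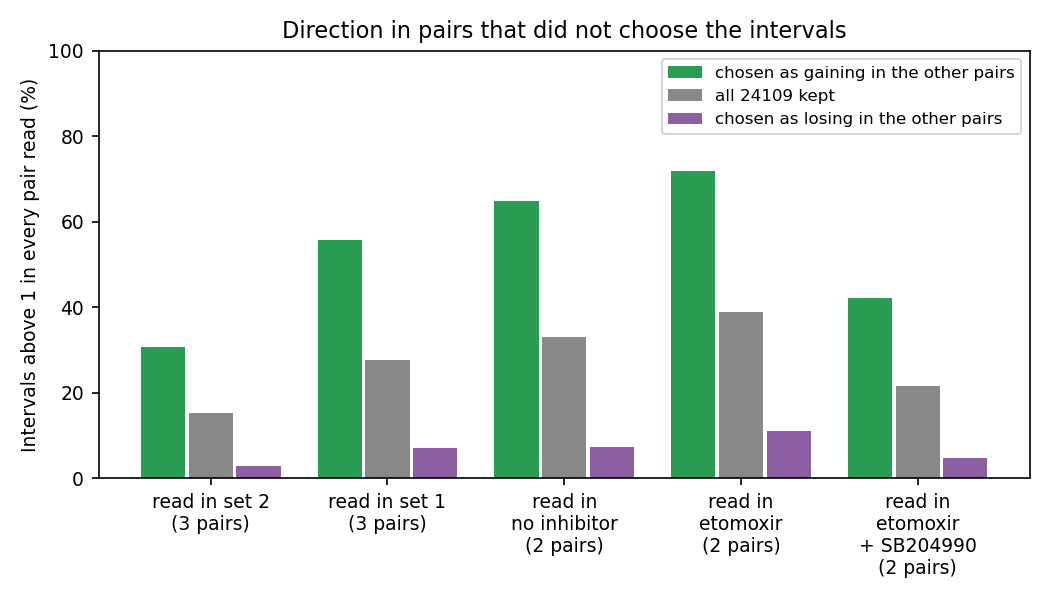
Percentage of intervals with a share ratio above 1 in every pair that was read (y axis), for intervals chosen as gaining in the other pairs, all kept intervals, and intervals chosen as losing in the other pairs. The gaining bars run from 30.7% (read in set 2) to 71.9% (read in etomoxir), and the losing bars from 2.92% to 10.99%.

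By limma with Benjamini-Hochberg adjustment, 858 of the 3672 intervals chosen on set 2 rose with acetate in set 1 (23.4%, against 8.25% of all kept) and 8 fell (0.218%, against 8.11%). A set holds a single library of each group, so the spread in these fits is that of the acetate effect among inhibitor backgrounds, not between replicates. The call in set 1 rests on the trend of the variance with signal, since no interval was called without it. At an unadjusted p under 0.05 there were then 1206 of the 3672 and 6250 of the 24109 kept, of which those higher after acetate made up 31.9% of the chosen and 15.9% of all kept intervals. In set 2, 0 of the 6672 chosen on set 1 were called by limma (0% of all kept), with 587 at an unadjusted p under 0.05 (8.80%, against 5.43% of all). Without the etomoxir + SB204990 pair of that set, 368 rose (5.52%, against 1.81%) and 1 fell (0.015%, against 1.69%). Within a single background 0 were called by limma. There the spread was estimated over all libraries, including those that chose the intervals. The counts that follow are therefore not independent of the choice. At an unadjusted p under 0.05 there were 457 of 3157 without inhibitor (14.5%, against 5.14%), 569 of 2843 with etomoxir (20.0%, against 8.79%) and 592 of 4852 with etomoxir + SB204990 (12.2%, against 5.29%). Without the first etomoxir + SB204990 library, the median log2 difference of those 4852 was 0.002, against 0.005 over all kept. Without the second such library it was 0.19, against 0.02 over all kept.

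The inhibitor contrasts were averaged over acetate. The selection compared no inhibitor groups, but it used the same 12 libraries, so counts among the gaining intervals are not independent of it. With etomoxir, 28 of the 2045 gaining intervals fell in share by limma (1.37%, against 0.199% of all kept) and 11 rose (0.538%, against 0.489%). With etomoxir + SB204990, 173 fell (8.46%, against 2.25%) and 31 rose (1.52%, against 1.61%), each in the same direction in both sets. The falls had a median size of 0.37 on the log2 scale. Adding SB204990 to etomoxir gave 0 calls by limma or edgeR (0% of all kept), and 212 at an unadjusted p under 0.05 by limma (10.4%, against 6.28%). On spike-scaled values 1530 fell in this contrast (74.8%, against 69.1% of all kept). The first 2 contrasts share the 4 libraries without inhibitor.

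Losing intervals showed the opposite balance with etomoxir + SB204990, where 56 rose (4.53%) and 19 fell (1.54%). The percentage of gaining intervals that fell was above that of all intervals in each quartile of signal, from 1.85% against 0.481% in the lowest to 13.0% against 4.25% in the highest. Without the etomoxir + SB204990 pair of set 2, 148 fell (7.24%, against 2.12% of all kept) and 21 rose (1.03%, against 1.26%). Among the 4852 intervals chosen without any etomoxir + SB204990 library, 218 fell (4.49%) and 67 rose (1.38%), and their median log2 difference was -0.003, against -0.008 over all kept and -0.05 in the gaining intervals. Among the 2843 chosen without the etomoxir pairs, 29 fell with etomoxir (1.02%, against 0.199%) and 18 rose (0.633%, against 0.489%). The balance of falls over rises with etomoxir turned without single libraries. Without the first etomoxir + acetate library there were 3 falls (0.147%, against 0.0124% of all kept) and 5 rises (0.244%, against 0.232%), and without the second etomoxir library 6 falls (0.293%, against 0.0332%) and 9 rises (0.440%, against 0.249%). The etomoxir + SB204990 libraries have no weight in this contrast and enter it only through the shared estimate of spread. Without the first of them the median log2 difference of the gaining intervals stayed at -0.04. With etomoxir + SB204990, leaving out 1 library gave 71 falls (3.47%, against 0.701%) and 14 rises (0.685%, against 0.651%) without the first library of all 3 agents. It gave 273 falls (13.3%, against 5.72%) and 52 rises (2.54%, against 3.91%) without the first etomoxir + SB204990 library. On spike-scaled values 98 fell (4.79%, against 1.22% of all kept) and 5 rose (0.244%, against 0.303%) with etomoxir + SB204990. With etomoxir 36 rose (1.76%, against 2.39%) and none fell (against 0.0207%), the median log2 difference over all kept intervals being 0.28.

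**Figure D5:**
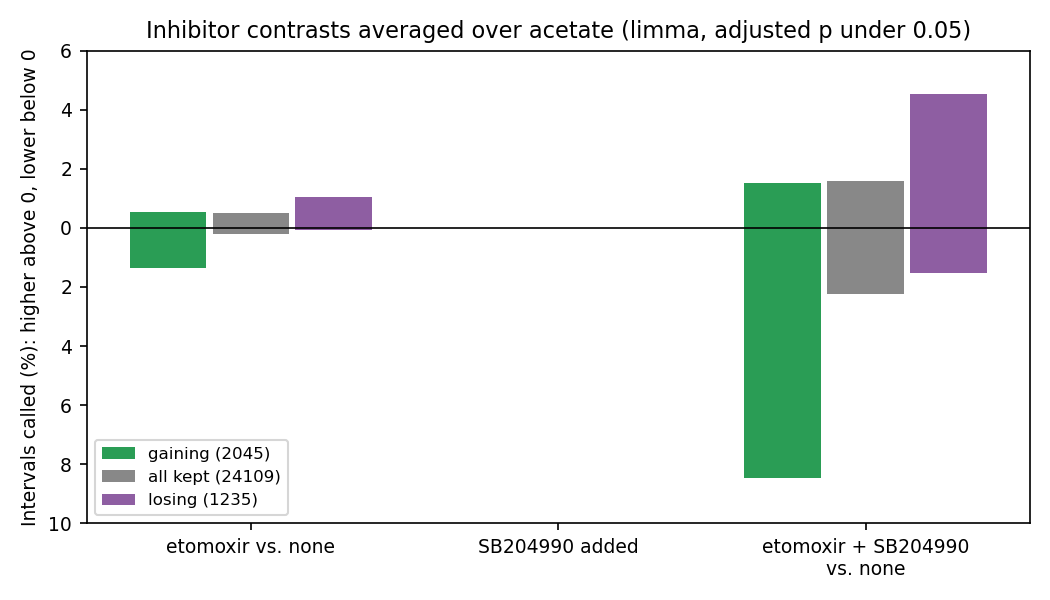
Percentage of intervals called higher (above 0) or lower (below 0) in share (y axis) in each inhibitor contrast (x axis), for gaining, all kept and losing intervals. With etomoxir + SB204990 the gaining bar reaches 8.46% on the lower side, against 2.25% for all kept intervals.

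The gaining intervals that rose most with the inhibitors were few and rose with each. At the start of Fbp2, a fructose-bisphosphatase of gluconeogenesis (chr13:62856386-62860871), the share in RPM without inhibitor was 4.25 and 4.75 in vehicle and 5.28 and 5.35 after acetate. With etomoxir it was 11.6 and 10.9, and 12.2 and 12.1 after acetate. With etomoxir + SB204990 it was 16.4 and 10.6, and 16.7 and 16.4 after acetate. Every library with an inhibitor lay above every library without one. By limma the log2 difference was 1.18 (SE 0.12, adjusted p = 0.000401) with etomoxir and 1.51 (SE 0.12, adjusted p = 2.64e-05) with etomoxir + SB204990. The interval near Cfap53, a cilium protein gene, had 6.71 to 9.95 RPM without inhibitor, 18.3 to 19.9 with etomoxir and 23.1 to 27.9 with both. Intervals near Cep57l1 (log2 difference 1.00 with both inhibitors) and 6820408C15Rik (1.09) rose likewise.

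Of the falls, the largest with etomoxir was near Gm42761 (chr5:77512724-77519825). Its share in RPM was 23.7 to 38.1 without inhibitor, 13.9 to 23.9 with etomoxir and 16.1 to 22.5 with both, so that the libraries without inhibitor overlapped those with etomoxir alone and not those with both. The log2 difference by limma was -0.65 (SE 0.09) in each contrast, with adjusted p of 0.00322 and 0.0013. On spike-scaled values the difference with etomoxir was -0.39 (adjusted p = 0.0969 by limma), so that call was lost. The largest fall with etomoxir + SB204990 was in an intron near Gpm6b, a membrane proteolipid gene, from 8.15 to 10.9 RPM without inhibitor to 4.24 to 5.95 (log2 difference -0.85, SE 0.11, adjusted p = 0.00112 by limma). Ranbp3l fell with etomoxir (-0.44, SE 0.07, adjusted p = 0.0113 by limma), whereas with both inhibitors its difference was -0.19 (adjusted p = 0.21), and on spike-scaled values the difference with etomoxir was -0.18 (adjusted p = 0.298). The Ccl2 interval fell in both contrasts by limma (-0.44, adjusted p = 0.0351, and -0.34, adjusted p = 0.0411). Both calls were lost without the intensity trend (adjusted p = 0.0982 and 0.0827 by limma), the first also on spike-scaled values (0.274) and the second with median-of-ratios scaling (0.0517). Chosen after their values were seen, intervals near Nox4, an NADPH oxidase (-0.67), Fas, a death receptor (-0.59), Ifngr1, the interferon gamma receptor (-0.53), and Il15 (-0.47 and -0.35) also fell with both inhibitors. On spike-scaled values Ifngr1 (adjusted p = 0.0594 by limma) and the second Il15 interval (0.0656) were no longer called, and the latter was lost as well without the trend (0.0684) and with median-of-ratios scaling (0.0502).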

How the data were processed

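H3K27ac ChIP-seq values of 12 libraries were taken from 1 table of consensus intervals. Per the study's methods, reads were processed with nf-core/chipseq. Scaling factors came from the percentage of human spike-in and were expressed relative to the highest factor. The methods name deepTools for coverage tracks and the heatmap. The submitters' processing notes name GRCm38, mm10 and GRCh38. The deposited values were whole read counts in 2 libraries and, in 10, spike-scaled signal, from which whole reads were recovered by 1 factor per library (100% of values whole; factors 0.398 to 1). The 2 libraries with whole counts had a factor of 1, the highest of their set. They were etomoxir + acetate of set 1 and etomoxir + SB204990 of set 2. Whole values there do not mean that spike scaling was left out. Whether factors were set separately in each set is not stated. Libraries held 7179165 to 16676442 reads in intervals.

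Shares were values over library sums. Inhibitor contrasts and held-out acetate effects were tested with limma 3.58.1 (R 4.3.3) on log2(share in RPM + 0.5), with an intensity trend, over 24109 intervals with a mean of at least 50, at a Benjamini-Hochberg adjusted p of 0.05; edgeR 4.0.16 on recovered reads was an alternative. On data simulated with an assumed spread, the etomoxir fit was tested on 24109 intervals and made 10 false calls. It recovered a share of 0.7 of the changes set at log2 0.5, and the acetate fit in set 2 recovered 0.43. Intervals carry the nearest gene of the deposited annotation; starts inside intervals came from GENCODE and sequence from RefSeq GRCm38. The meaning of the deposited suffixes is not given, and fits had no suffix block. Tables were handled with Python 3.11.15.

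Members and gene lists were chosen with earlier results of these data known. Named were the members with the largest mean ratio (10), smallest ratio (6), mean value (6) and promoter ratio (6), the 3 genes with most members, up to 2 per list, up to 5 per contrast, and those at the thresholds. Some intervals that this rule names are not reported here. Choosing intervals without a whole background, or without the etomoxir + SB204990 pair of set 2, was planned. Held-out fits without the etomoxir + SB204990 pair of the set read were planned too. Choices without any other single pair were added after seeing the data. So were inhibitor contrasts fitted without the etomoxir + SB204990 pair of set 2, and those read in intervals chosen without some pairs. Motif matches describe letters only.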

Additional observations from a re-analysis of the deposited data

How the results depend on the processing

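The number of gaining intervals changed most with the pairs used and with the threshold. It was 6672 with set 1 only, 3672 with set 2 only, 4852 without the etomoxir + SB204990 pairs, 3157 without those lacking inhibitor, 2351 to 4280 without 1 pair, 1104 at a mean of at least 200, and 746 and 265 at ratios more than 5% and 10% above 1. Dividing by the sum over kept intervals gave 1665, of which 1383 were shared.

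Calls among the gaining intervals with etomoxir numbered 39 (1.91%, against 0.689% of all tested). They were 23 without the intensity trend (1.12%, against 0.506%), 19 with no filter on low values (0.929%, against 0.0783%), 76 without the etomoxir + SB204990 pair of set 2 (3.72%, against 1.23%), and 8 to 108 without 1 library, the highest without the first etomoxir + SB204990 library (4.40% fell, against 0.937%, and 0.880% rose, against 1.02%) and the lowest without the first etomoxir + acetate library (0.391%, against 0.245%). With both inhibitors they were 204 (9.98%, against 3.85%), then 107 with no filter (5.23%, against 0.361%), 103 on spike-scaled values (5.04%, against 1.53%) and 85 to 325 without 1 library (4.16% to 15.9%, against 1.35% to 9.63%). For SB204990 added to etomoxir, 1530 fell on spike-scaled values, where 16653 of all kept intervals fell too, and 0 to 3 were called without 1 library (at most 0.147%, against 0.357% of all kept). On spike-scaled values the median difference of the gaining intervals with etomoxir turned from -0.04 to 0.23. The 866 calls in set 1 (23.6%, against 16.4% of all kept) became 0 without the intensity trend and 474 without its etomoxir + SB204990 pair (12.9%, against 7.27%), and the 0 calls in set 2 became 369 without that pair (5.53%, against 3.50%). Read in etomoxir + SB204990, 0 to 125 were called without 1 library, the highest without the first etomoxir + SB204990 library (2.58%, against 2.07% of all kept), and the other backgrounds gave 0. The excess of GC in gaining windows was 0.86 percentage points, 1.32 over whole intervals and 1.23 against intervals of like class and signal. The etomoxir + SB204990 libraries enter the etomoxir contrast only through the shared estimate of spread, and its median difference stayed at -0.04 without them. The cause of the other changes was not tested.

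Whether library suffixes pair the samples is not settled: the deviations of same-suffix libraries correlated above 0.1 in 6 of 15 pairs of groups (-0.33 to 0.61). With the suffix as a replicate block, 51 gaining intervals were called with etomoxir (2.49%, against 0.846% of all kept) and 238 with both inhibitors (11.6%, against 4.65%). The etomoxir + SB204990 library of set 2 had the fewest reads per gaining interval, a median of 159. The part of depth in its differences was not tested.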
